A study of Mus musculus with 48 samples.

Results

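Adipocytes fill their lipid stores with fatty acids that arrive in lipoproteins or bound to albumin, and the genes that carry out this intake were followed in 3T3-L1 cells with and without a knockdown of PPARγ. The set comprises all probes annotated to LPL, ANGPTL4, VLDLR, CD36, SLC27A1, FABP4, FABP5 or ACSL1, which are 14 probes of 8 genes among the 24613 probes and 18991 gene symbols of the array. The rule that names these genes uses their role and no measured value, but they were chosen with earlier results of these data known. Expression was profiled on 48 arrays of the Illumina MouseRef type, which cover 2 siRNAs, 8 days and 3 biological replicates of each.

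3T3-L1 is a mouse fibroblast line that becomes fat-laden when hormones induce it to differentiate, and all groups are of this single line. Cells were transfected before differentiation with 50 nM of either a non-targeting control pool (control siRNA) or a SMARTpool against PPARγ (PPARγ KD). Both groups then received the same treatment at confluence, IBMX (0.5 mM) with dexamethasone (0.25 µM) for 48 hours and after that insulin (5 µg/ml) with the PPARγ ligand rosiglitazone (1 µM) for 48 hours. RNA was taken on day −2 and on days 0, 1, 2, 3, 4, 5 and 6, counted from the addition of rosiglitazone. Whether the day −2 cells had already met IBMX and dexamethasone is not stated in the sources used here. Every difference between siRNAs below is PPARγ KD minus control siRNA, so a negative log2 value means a lower signal in the KD.

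Lipoprotein lipase (LPL) is secreted and cuts triglycerides of circulating lipoproteins into free fatty acids, ANGPTL4 is the secreted inhibitor of that enzyme, and the VLDL receptor (VLDLR) binds triglyceride-rich lipoproteins at the cell surface. Released fatty acids enter the cell with the help of CD36, a membrane glycoprotein, and of the fatty acid transport protein FATP1 (SLC27A1). Inside, the fatty acid binding proteins FABP4 (aP2) and FABP5 carry them through the cytosol, and long-chain acyl-CoA synthetase 1 (ACSL1) couples them to coenzyme A, the step that commits them to storage or oxidation. Several of these genes are textbook targets of PPARγ, a nuclear receptor that binds DNA together with RXR at direct repeats of the core AGGTCA.

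RefSeq windows from 250 bases before to 50 bases after a transcription start were at hand for 4 of the 8 genes (Acsl1, Cd36, Slc27a1 and Vldlr), with 8 windows in all. Windows of Lpl, Angptl4, Fabp4 and Fabp5 were not used here. Sites of PPARγ, of the glucocorticoid receptor and of C/EBP, and the GC box, were searched on both strands. The PPARγ core AGGTCA matched 1 of the 8 windows, that of Cd36, against 16.3% of all 32851 windows. The GC box GGGCGG matched 5 of the 8 windows, against 35.7% of all. The direct repeat of that core with any 1 base between the copies matched 0 of the 8 windows and 0.0396% of all. The C/EBP palindrome TTGCGCAA matched 0 of 8 and 0.183%, and the glucocorticoid receptor site, GNACA and TGTNC with any 3 bases between them, matched 0 of 8 and 0.475%. Matches of the repeat contain the core, and the other motifs were counted on their own. A match describes letters only, and no match says only that these letters are not in this window. Shown are the windows of the most strongly lowered gene (Acsl1, the upstream of its 2 starts), of the gene with the core (Cd36) and of the gene that was higher in the KD (Vldlr, the downstream of its 2 starts), in build GRCm38.p6 and 5′ to 3′ on the gene's own strand. Capitals mark matches to AGGTCA or GGGCGG on either strand.
Acsl1, chr8:46470787-46471086, plus strand: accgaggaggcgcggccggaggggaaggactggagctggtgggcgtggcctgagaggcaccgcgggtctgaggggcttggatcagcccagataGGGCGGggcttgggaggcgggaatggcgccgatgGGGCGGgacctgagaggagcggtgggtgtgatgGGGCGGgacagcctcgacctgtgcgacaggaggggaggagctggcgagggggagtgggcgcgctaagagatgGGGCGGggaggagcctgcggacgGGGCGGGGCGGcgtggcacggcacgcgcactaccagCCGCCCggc
Cd36, chr5:17835847-17836146, minus strand: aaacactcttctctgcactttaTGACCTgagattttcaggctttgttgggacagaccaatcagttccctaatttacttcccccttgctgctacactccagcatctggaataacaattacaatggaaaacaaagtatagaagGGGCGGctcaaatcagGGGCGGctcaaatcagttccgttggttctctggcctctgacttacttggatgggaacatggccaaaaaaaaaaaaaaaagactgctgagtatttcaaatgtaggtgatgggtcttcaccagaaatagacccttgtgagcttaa
Vldlr, chr19:27216770-27217069, plus strand: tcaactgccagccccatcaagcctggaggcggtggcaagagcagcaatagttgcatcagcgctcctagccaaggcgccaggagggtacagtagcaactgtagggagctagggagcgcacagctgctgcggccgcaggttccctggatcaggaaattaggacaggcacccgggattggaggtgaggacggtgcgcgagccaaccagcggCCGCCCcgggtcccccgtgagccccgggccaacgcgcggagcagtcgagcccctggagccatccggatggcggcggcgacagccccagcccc

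The Acsl1 window held 7 GC box matches, of which 2 share 1 base, and 74.0% of its bases were G or C. The Cd36 window held 1 core, 228 bases before the start, and 2 GC boxes, with 43.0% G or C. The Vldlr window held 1 GC box and 68.0% G or C. The windows of the other starts, not shown, held 0 GC boxes, with 50.0% G or C for Acsl1 and 43.0% for Vldlr.

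Signals are deposited bead intensities that were background corrected, scaled on probes of invariant rank and put on a log2 scale. The share of probes above background (detection p under 0.01) ran from 33.4% to 40.4% by array, and replicate 3 stood apart, with at most 35.4% on each of its 16 arrays against at least 36.8% in replicates 1 and 2. Precision is limited by having 3 arrays a group. The PPARG probe 6130632 was lower in the KD in all 24 comparisons of a KD array with its like-numbered control array, by 2.34 on average on the log2 scale. All 8 adipocyte marker genes that were found fell in the KD, and on day 6 their summed signal was between 96197 and 105121 under control siRNA and between 14524 and 17176 in the KD. Of the 8 preadipocyte or fibroblast marker probes 5 rose in the KD, and 2 of 13 macrophage marker probes and 1 of 6 endothelial ones were above background on any array. Of these, LYZS rose by 0.32 and ENG by 0.42, while CD68, EMR1, PTPRC, PECAM1 and CDH5 were not above background on any array. In these bulk samples fewer fat cells and less RNA per fat cell cannot be told apart, and the part of these markers in the results below was not tested.

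Over all 8 days, 8 of the 14 probes were called lower and 1 was called higher in the KD. In the same comparison 6.74% of all probes were called lower and 6.37% higher (limma, Bonferroni adjusted p of at most 0.05 over all probes). By gene, LPL, ANGPTL4, CD36, SLC27A1, FABP4, FABP5 and ACSL1 were lower and VLDLR was higher. The median log2 difference was −1.46 over the brightest probe of each gene and −0.76 over all 14 probes, against −0.03 over all probes of the array. 4 of the 14 probes, 3 of VLDLR and 1 of FABP5, were above background on no array, and LPL probe 1450735 on 1. Each gene is therefore described by its brightest probe.

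**Figure D1:**
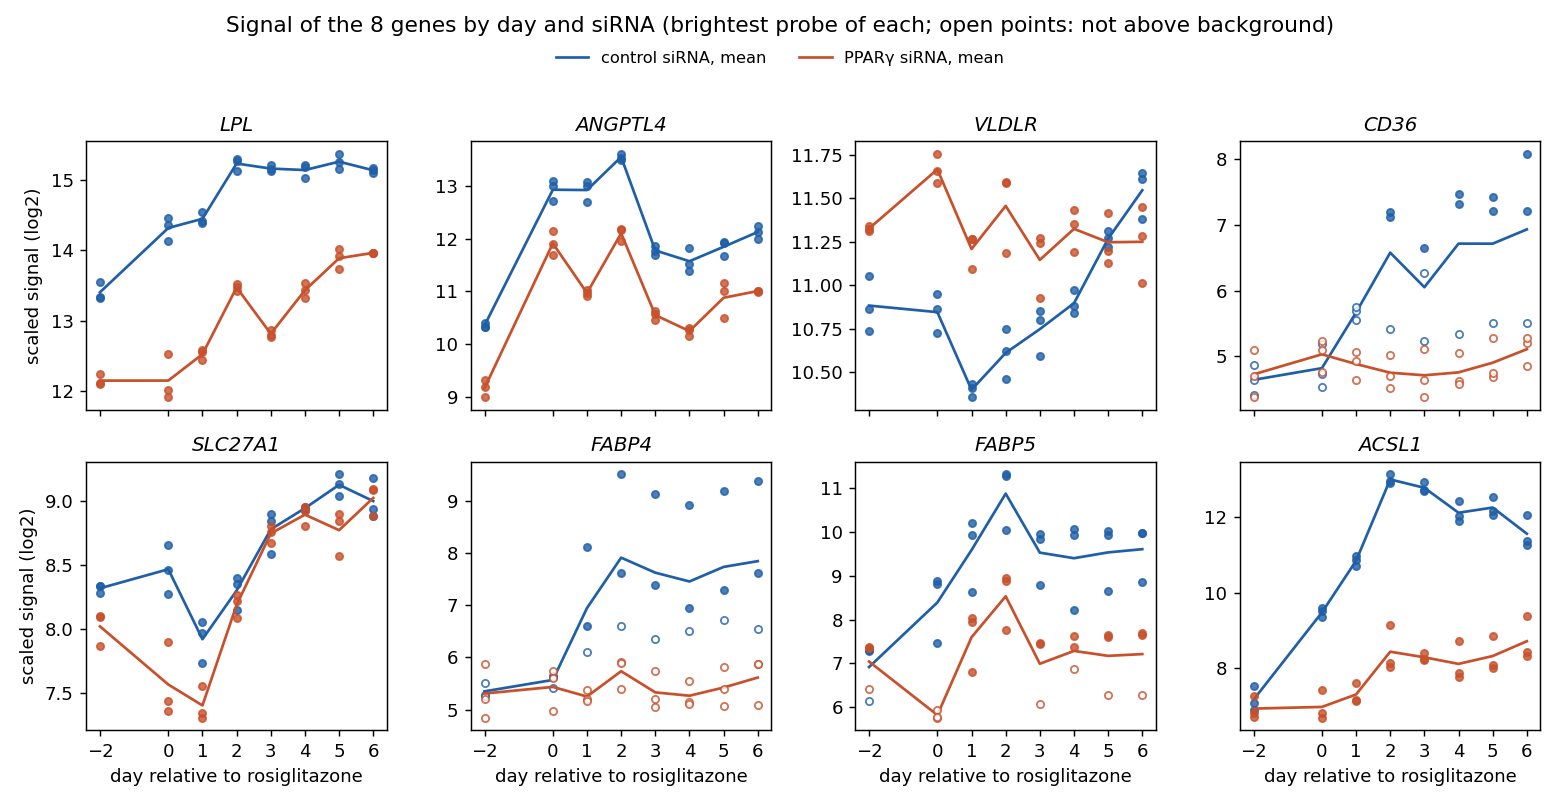
Scaled log2 signal of the brightest probe of each gene on each day relative to rosiglitazone, with the 3 arrays of each siRNA as points, the mean as a line and open points for arrays where the probe was not above background. The 2 lines of ACSL1 start together on day −2 and separate from day 0, those of LPL and ANGPTL4 are apart on all 8 days, and those of VLDLR cross between days 4 and 5.

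Among the genes of lipoprotein lipolysis, LPL was lower in the KD on every day without any overlap between the groups. On day −2 the LPL signals (probe 2970706, log2) were 13.55, 13.32 and 13.34 under control siRNA and 12.10, 12.09 and 12.24 in the KD. On day 3 they were 15.22, 15.12 and 15.15 under control siRNA and 12.87, 12.77 and 12.80 in the KD, and on day 6 they were 15.15, 15.11 and 15.17 against 13.97, 13.97 and 13.96. All KD arrays were thus below all control arrays on these days, by more than the spread between replicates. The log2 difference was −1.26 (SE 0.10, limma adjusted p = 2.07e-10) on day −2, reached −2.35 (adjusted p = 2.49e-19) on day 3, where the KD held 19.6% of the control signal, and was −1.18 (adjusted p = 1.57e-09) on day 6. The highest deposited LPL signal was 43661.9, while single probes on these arrays reached 67066.3. The KD mean went from 12.81 on day 3 to 13.97 on day 6, while the control means stayed between 15.14 and 15.26 from day 2 on. The difference over days 4 to 6 was smaller than that over days 0 to 2 by 0.53 (SE 0.08, limma adjusted p = 0.00358). Without replicate 1 this change was 0.46 and without replicate 2 it was 0.52, and neither passed the threshold (adjusted p = 1).

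ANGPTL4, which restrains LPL, was lower in the KD on all 8 days as well, again with no overlap. On day −2 its signals (probe 6760593, log2) were 10.34, 10.34 and 10.40 under control siRNA and 9.19, 9.32 and 8.99 in the KD, a difference of −1.19 (SE 0.12, limma adjusted p = 5.75e-08). On day 1 they were 13.08, 12.99 and 12.69 against 10.98, 11.02 and 10.91, a difference of −1.95 (adjusted p = 1.51e-14). The largest ANGPTL4 difference was thus seen 1 day after rosiglitazone was added. On day 4 the signals were 11.81, 11.51 and 11.39 against 10.28, 10.32 and 10.16, a difference of −1.32 (adjusted p = 2.68e-09). The day 0 call (−1.02, adjusted p = 3.54e-06) was lost without replicate 1 (−0.84, adjusted p = 0.278) and without replicate 2 (−0.99, adjusted p = 0.0811). The dimmer probe 2480195 was called lower on days 0 to 3 and over all days (−1.11, adjusted p = 2.98e-17), but not on days −2, 4, 5 and 6, where its differences lay between −0.79 and −0.75. Its day 0 call was lost without replicate 1 and without replicate 2.

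VLDLR took the opposite direction early on, with every KD array above every control array from day −2 to day 4. On day 2 its signals (probe 870722, log2) were 10.62, 10.75 and 10.46 under control siRNA and 11.59, 11.60 and 11.19 in the KD, so that all KD arrays were above all control arrays. The difference was 0.82 on day 0 (SE 0.08, limma adjusted p = 1.87e-07), 0.81 on day 1 (adjusted p = 2.72e-07) and 0.85 on day 2 (adjusted p = 8.38e-08), where the KD held 180% of the control signal. It was 0.40 on day 3 and 0.43 on day 4, −0.02 on day 5 and −0.30 on day 6, none of which passed the threshold, although the day 6 value did with Benjamini-Hochberg adjustment (limma adjusted p = 0.0117). On day 6 the signals were 11.61, 11.65 and 11.38 under control siRNA and 11.45, 11.29 and 11.01 in the KD, and the groups overlapped. Late minus early, the VLDLR difference fell by 0.79 (SE 0.07, adjusted p = 1.93e-09), with the same sign in each replicate (−0.70, −0.85 and −0.82). The control signal was lowest on day 1, at a mean of 10.40, and highest on day 6, at 11.55, while the KD means stayed between 11.15 and 11.67. The other VLDLR probes, 6550131, 5340452 and 3060047, were not well above background on any of the 48 arrays and have no usable second reading.

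Of the membrane proteins for fatty acid entry, CD36 was dim and SLC27A1 was called lower on day 0. The CD36 probe 5890575 exceeded background on 9 of 24 control arrays, all of them on days 2 to 6 of replicates 1 and 2, and on 0 of 24 KD arrays. On day 6 its signals (log2) were 8.08, 7.20 and 5.50 under control siRNA and 4.85, 5.20 and 5.27 in the KD. The control arrays of replicates 1 and 2 were the highest, and replicate 3 was not above background under either siRNA. Since CD36 has only an upper limit in the KD, the day 6 difference was at least 1.36-fold, and over all days the limit allowed no fold, with measured means of 6.01 and 4.86 (limma adjusted p = 0.00071). Without replicate 1 or replicate 2 the CD36 call was lost, at a fitted difference of −0.92 and an adjusted p of 1 in each case.

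SLC27A1 was above background on all 48 arrays, with small differences. On day 0 its signals (probe 6110093, log2) were 8.66, 8.47 and 8.28 under control siRNA and 7.36, 7.44 and 7.90 in the KD, without overlap, a difference of −0.90 (SE 0.11, limma adjusted p = 2.32e-05). The day 0 call was lost without replicate 1 (−0.71, adjusted p = 0.898) and without replicate 2 (−0.85, adjusted p = 0.480). The groups did not overlap on day −2 and day 1 either, with differences of −0.30 (95% interval −0.52 to −0.07) and −0.52 (95% interval −0.74 to −0.29). Neither passed the Bonferroni threshold, and that of day 1 passed with Benjamini-Hochberg adjustment (limma adjusted p = 8.92e-04). On day 4 the signals were 8.96, 8.93 and 8.95 against 8.93, 8.95 and 8.81 and the groups overlapped, with a difference of −0.05 and a 95% interval from −0.28 to 0.17. On day 5 the signals were 9.21, 9.13 and 9.04 against 8.85, 8.90 and 8.57, again without overlap, a difference of −0.35 (95% interval −0.58 to −0.13) that did not pass the Bonferroni threshold (adjusted p = 1) but passed with Benjamini-Hochberg adjustment (limma adjusted p = 0.0308). On day 6 the difference was 0.02 (95% interval −0.20 to 0.25). Over all days it was −0.28 (adjusted p = 4.48e-04), which was lost without replicate 1 (−0.22, adjusted p = 1) and without replicate 2 (−0.31, adjusted p = 0.386).

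**Figure D2:**
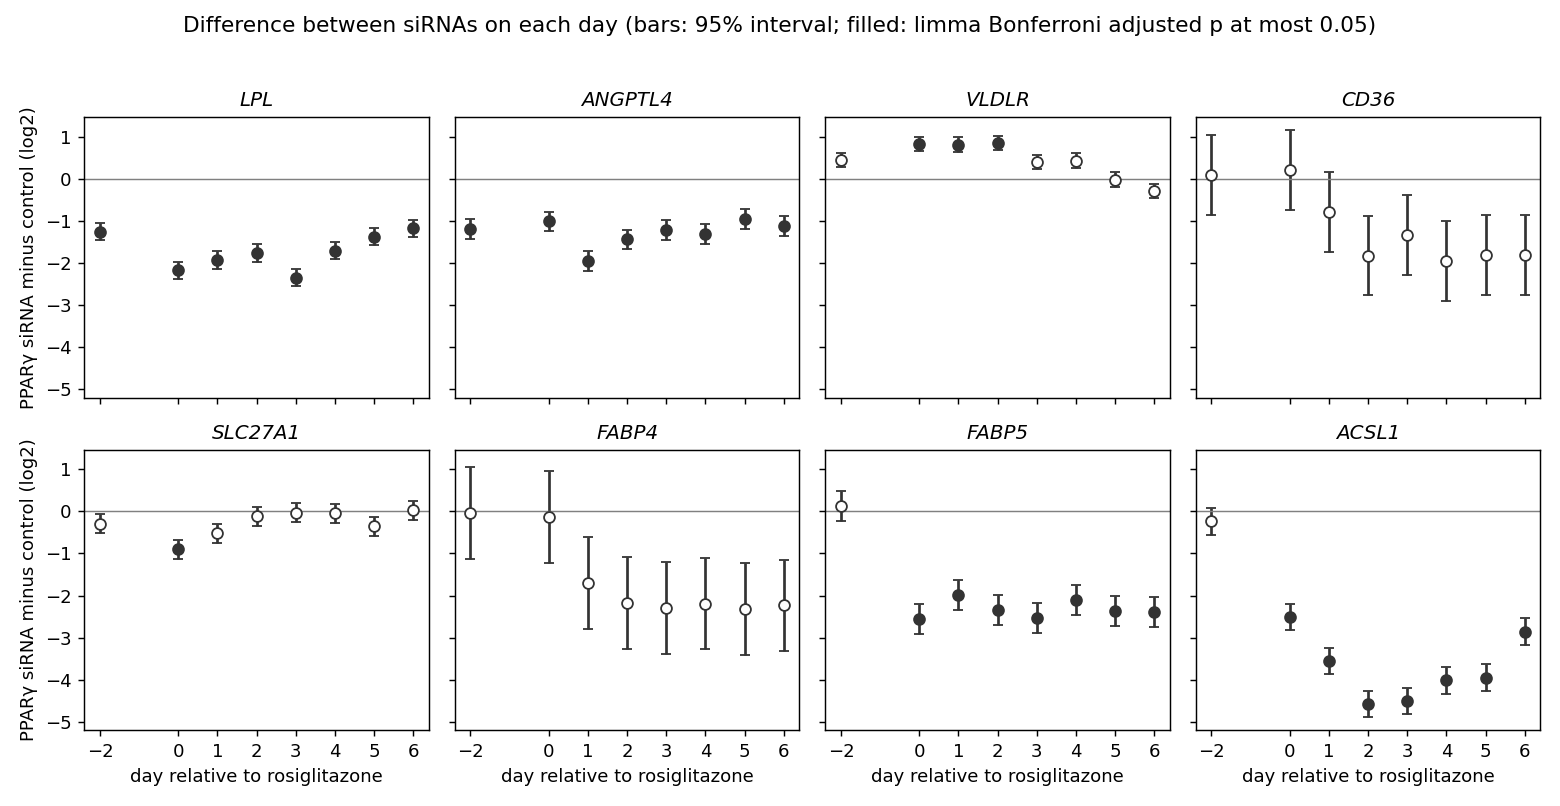
Log2 difference PPARγ siRNA minus control siRNA of the brightest probe of each gene on each day, with the 95% interval of limma's fit; filled points passed the Bonferroni threshold. ACSL1 is at −0.24 on day −2 and at −4.58 on day 2, VLDLR is above 0 until day 4, and the wide intervals of FABP4 and CD36 go with open points throughout.

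FABP4, one of the best known markers of fat cells, gave a dim reading here. Its probe 5050114 exceeded background on 12 of 24 control arrays, those of days 1 to 6 in replicates 1 and 2, on 0 of 8 control arrays of replicate 3 and on 0 of 24 KD arrays. On day 2 the signals (log2) were 9.52, 7.63 and 6.60 under control siRNA and 5.92, 5.40 and 5.89 in the KD, and on day 6 they were 9.39, 7.62 and 6.54 against 5.88, 5.09 and 5.87. Every control array was above every KD array on both days, and the highest and lowest control arrays differed by more than 2 log2 units. The highest deposited signals were 874.1 in control replicate 1, 309.5 in control replicate 2, 174.7 in control replicate 3 and 150.1 in the KD. The difference was at least 1.46-fold over all days (limma adjusted p = 5.12e-06, measured means 7.06 and 5.42), at least 2.72-fold on day 2 and at least 2.57-fold on day 6, and on no single day did it pass the Bonferroni threshold. Without replicate 2 the call was lost (fitted difference −1.61, adjusted p = 0.359).

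FABP5 was far better measured, with probe 730452 exceeding background on 39 of 48 arrays, and was lower in the KD from day 0 on. On day −2 the signals (log2) were 7.32, 7.29 and 6.15 under control siRNA and 7.34, 7.37 and 6.41 in the KD, which overlapped, and the difference was 0.13 (95% interval −0.23 to 0.48). On day 0 they were 8.89, 8.80 and 7.48 under control siRNA and 5.94, 5.75 and 5.77 in the KD. The KD arrays of day 0 were all below background, so the difference was at least 3.65-fold (limma adjusted p = 1.53e-12). On day 2 the signals were 11.26, 11.31 and 10.03 against 8.87, 8.95 and 7.77, a difference of −2.34 (SE 0.18, adjusted p = 2.78e-11), and on day 6 they were 9.97, 9.97 and 8.86 against 7.65, 7.70 and 6.29, a difference of −2.39 (adjusted p = 1.43e-11). Replicate 3 was lower than the others under both siRNAs, and on day 2, where all its arrays were above background, its difference was −2.26 against −2.39 and −2.36 in replicates 1 and 2. The KD held 19.7% of the control signal on day 2 and 19.1% on day 6. On days 3 to 6 the KD array of replicate 3 was not above background, so the day 6 share rests in part on such a value. Without the replicate block the FABP5 calls of days 0 to 6 were all lost, with the differences unchanged. The second FABP5 probe, 4810497, was above background on no array.

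**Figure D3:**
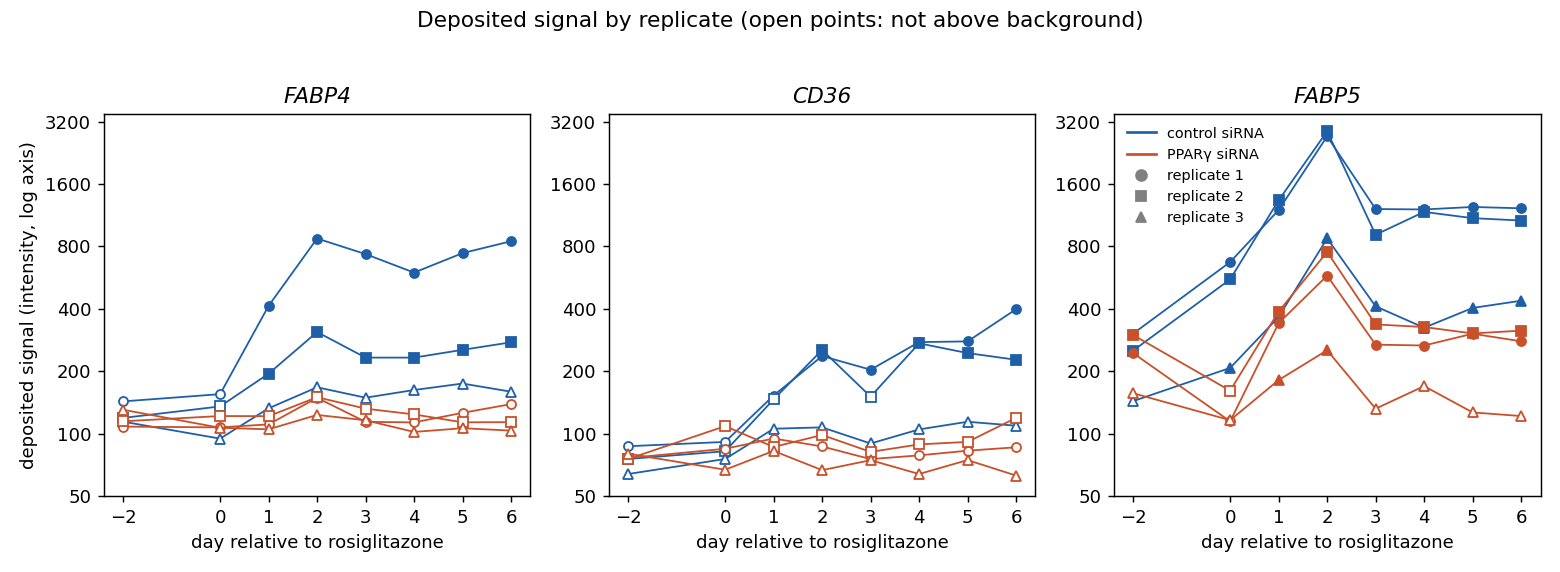
Deposited signal, on a log axis, of FABP4, CD36 and FABP5 in each replicate by day relative to rosiglitazone, with open points for arrays not above background. Control replicate 3 stays at or under 174.7 for FABP4 and 114.3 for CD36, while in FABP5 the control line of each replicate lies above the KD line of the same replicate from day 0 on.

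ACSL1 was the gene with the largest difference of the 8. On day −2 its signals (probe 2900520, log2) were 7.07, 6.88 and 7.51 under control siRNA and 6.79, 6.70 and 7.25 in the KD, an overlap, with a difference of −0.24 (SE 0.16, limma adjusted p = 1, 95% interval −0.56 to 0.08). On day 0 they were 9.34, 9.50 and 9.58 against 6.80, 6.66 and 7.41, a difference of −2.51 (adjusted p = 7.15e-14). On day 2 they were 12.91, 12.96 and 13.15 against 8.13, 8.02 and 9.13, a difference of −4.58 (adjusted p = 7.89e-23), or 23.9-fold. On day 6 they were 11.28, 11.36 and 12.06 against 8.43, 8.31 and 9.38, a difference of −2.86 (adjusted p = 1.00e-15), or 7.25-fold. From day 0 to day 6 every KD array was below every control array, and the groups were separated by more than the spread between replicates. The KD held 4.18% of the control signal on day 2 and 13.8% on day 6. Over all days the difference was −3.28 (SE 0.06, adjusted p = 6.08e-34) and was −3.33, −3.42 and −3.08 within the replicates.

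By day, the number of member probes called lower was 2 on day −2 (0.674% of all probes), 6 on day 0 (1.37%), 5 on day 1 (1.49%), 5 on day 2 (4.18%), 5 on day 3 (2.29%), 4 on day 4 (2.13%), 4 on day 5 (2.68%) and 4 on day 6 (3.09%). VLDLR was called higher on day 0 (1.67% of all probes), day 1 (1.42%) and day 2 (4.74%). The genes lower on day −2 were LPL and ANGPTL4, and SLC27A1, FABP5 and ACSL1 were called lower besides them on day 0. From day 3 to day 6 the genes called were LPL, ANGPTL4, FABP5 and ACSL1. Without replicate 1, and without replicate 2, 3 probes were called lower on day 0, those of LPL, FABP5 and ACSL1.

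The courses under the 2 siRNAs were then set side by side. From day −2 to day 6 under control siRNA 7 member probes rose (4.11% of all probes rose), which are those of LPL, ANGPTL4, VLDLR, SLC27A1, FABP5 and ACSL1. In the KD 5 member probes rose (2.49% of all probes), those of LPL, ANGPTL4, SLC27A1 and ACSL1. LPL rose by 1.74 under control siRNA (SE 0.10, limma adjusted p = 7.56e-15) and by 1.82 in the KD (adjusted p = 1.60e-15), and the difference between these changes was 0.08 (95% interval −0.21 to 0.37). ANGPTL4 rose by 1.77 and 1.84, with a difference of 0.07 (95% interval −0.26 to 0.40). SLC27A1 rose by 0.68 and 1.00, with a difference of 0.32 (95% interval 0.004 to 0.64, adjusted p = 1). The control rise of SLC27A1 was not called without replicate 1 (0.60) or without replicate 2 (0.69), with an adjusted p of 1 in both cases.

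The other genes behaved otherwise. ACSL1 rose by 4.41 under control siRNA (21.3-fold, adjusted p = 3.01e-22 from limma) and by 1.79 in the KD (3.46-fold, adjusted p = 2.49e-09), and the difference between the courses was −2.62 (SE 0.22, adjusted p = 9.48e-10). FABP5 rose by 2.69 under control siRNA and changed by 0.17 in the KD (95% interval −0.19 to 0.53), a difference of −2.52 (SE 0.25, adjusted p = 8.36e-08). Without the replicate block neither the control rise of FABP5 (limma adjusted p = 0.628) nor this difference was called, with the sizes unchanged. VLDLR rose by 0.66 under control siRNA and changed by −0.08 in the KD, a difference of −0.74 (SE 0.12, adjusted p = 0.00711). In this difference between the courses 3 member probes were called lower, against 2.09% of all probes. Leaving out replicate 1, 2 or 3 gave −0.90, −0.68 and −0.64 for VLDLR, with adjusted p of 0.403, 1 and 1, and its control rise was lost without replicate 1 (0.71, adjusted p = 0.0861) and without replicate 2 (0.60, adjusted p = 0.416). FABP4 and CD36 were above background on 2 of 3 control arrays of day 6 and on none of day −2, and their rise under control siRNA, at least 2.73-fold and at least 1.44-fold, did not pass the threshold (adjusted p = 0.976 and 0.480).

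**Figure D4:**
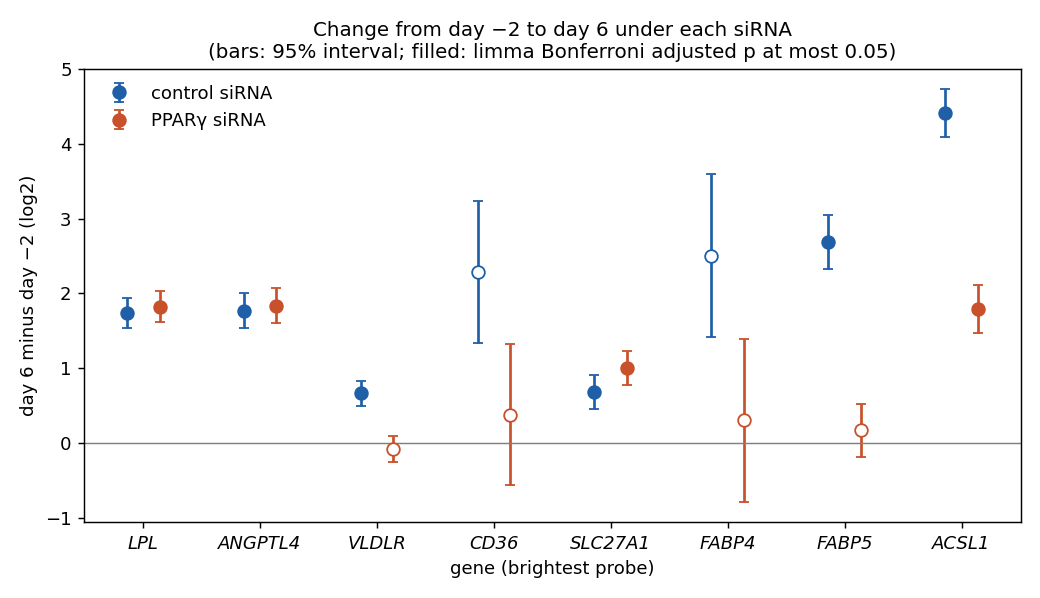
Log2 change from day −2 to day 6 of the brightest probe of each gene under control siRNA and PPARγ siRNA, with 95% intervals of limma's fit and filled points where the change passed the Bonferroni threshold. LPL and ANGPTL4 rose by 1.74 to 1.84 under both siRNAs, and ACSL1 rose by 4.41 under control siRNA and by 1.79 in the KD.

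The rise was not even over time. From day −2 to day 0, 4.01% of all probes rose under control siRNA, and 3.36% rose and 4.02% fell in the KD. From day 0 to day 1, 4.89% rose under control siRNA, and 4.70% rose and 3.67% fell in the KD. From day 1 to day 2, 1.70% rose under control siRNA and 1.58% in the KD, and from day 2 to day 3, 3.92% and 0.999% fell. In the KD 0.268% rose from day 3 to day 4. Against these shares stand the following changes of the members. Under control siRNA ACSL1 rose by 2.32 from day −2 to day 0 (limma adjusted p = 9.63e-13), by 1.37 from day 0 to day 1 (adjusted p = 3.53e-06) and by 2.16 from day 1 to day 2 (adjusted p = 8.42e-12), and its mean was highest on day 2, at 13.01. In the KD ACSL1 changed by 0.04 from day −2 to day 0 (95% interval −0.27 to 0.36) and rose by 1.14 from day 1 to day 2 (adjusted p = 3.09e-04). FABP5 rose by 1.47 under control siRNA from day −2 to day 0 (adjusted p = 1.16e-05) and was lower on day 0 by at least 1.43-fold in the KD (adjusted p = 8.69e-04), where no day 0 array was above background. It then rose from day 0 to day 1 under both siRNAs, by 1.19 under control siRNA (adjusted p = 0.00138) and by at least 2.10-fold in the KD (adjusted p = 9.19e-08), was highest on day 2 and fell from day 2 to day 3 by 1.35 (adjusted p = 9.95e-05) and 1.54 (adjusted p = 3.93e-06). FABP5 means were thus highest on the same day under both siRNAs. The KD value of day 0 against day −2 was not called without background correction, with an offset of 50, without replicate 1 or without replicate 2. The control steps of FABP5 kept their size but not their calls without replicate 1 (1.41, 1.27 and −1.37 for the rises to day 0 and day 1 and the fall to day 3) and without replicate 2 (1.44, 1.09 and −1.28). Without replicate 1 the ACSL1 steps of 1.37 under control siRNA and 1.21 in the KD were not called either (adjusted p = 0.158 and 0.791).

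ANGPTL4 rose steeply between day −2 and day 0 under both siRNAs, by 2.57 (limma adjusted p = 1.32e-18) and 2.74 (adjusted p = 1.41e-19). From day 0 to day 1 ANGPTL4 fell by 0.94 in the KD (adjusted p = 2.45e-05) and changed by −0.01 under control siRNA (adjusted p = 1). From day 1 to day 2 ANGPTL4 was called higher in the KD, with means of 10.97 and 12.10. Under control siRNA, with means of 12.92 and 13.55, this step was not called. ANGPTL4 fell from day 2 to day 3 by 1.77 under control siRNA (adjusted p = 3.56e-13) and by 1.55 in the KD (adjusted p = 2.37e-11). LPL rose by 0.92 from day −2 to day 0 under control siRNA (adjusted p = 1.55e-06) and changed by 0.00 in the KD (95% interval −0.20 to 0.21). From day 1 to day 2 LPL rose under both siRNAs, by 0.79 (adjusted p = 6.40e-05) and 0.95 (adjusted p = 5.85e-07), and in the KD it fell by 0.66 from day 2 to day 3 (adjusted p = 0.00301) and rose by 0.62 from day 3 to day 4 (adjusted p = 0.0106). SLC27A1 rose by 0.79 in the KD from day 1 to day 2 (adjusted p = 5.30e-04) and changed by 0.38 under control siRNA (adjusted p = 1). The SLC27A1 step was not called without replicate 1 (0.72, adjusted p = 0.765) or without replicate 2 (0.83, adjusted p = 0.709). Without replicate 2 the control steps of LPL were 0.84 and 0.81 (adjusted p = 0.250 and 0.355) and the ANGPTL4 step of the KD was −0.95 (adjusted p = 0.141). The fall of LPL in the KD was not called under quantile normalization (−0.57, adjusted p = 0.121), without replicate 1 (−0.68) or without replicate 2 (−0.62), nor was its rise to day 4 under quantile normalization (0.58, adjusted p = 0.0899) or without replicate 1 (0.70), 2 (0.59) or 3 (0.56).

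The siRNA difference of days 4 to 6 was also compared with that of days 0 to 2. In this comparison 1 member probe was called lower, that of VLDLR, against 2.82% of all probes, and 2 were called higher, LPL and the dimmer ANGPTL4 probe, against 0.813%. The LPL value is given above, and ANGPTL4 probe 2480195 changed by 0.75 (limma adjusted p = 0.0213), a call that was lost without replicate 1 and without replicate 2. The brighter ANGPTL4 probe 6760593 changed by 0.33 (adjusted p = 1), so the 2 probes differ in this call.

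Likeness of pattern was measured by Pearson's r over the 16 means of siRNA and day, which come from the same arrays, and it is given as a description. For each member, between 9215 and 9217 probes of other genes, above background on at least 24 arrays, were compared. ACSL1 was closest to A230097K15RIK (0.993) and DCI, an isomerase of fatty acid oxidation (0.984). FABP4 was closest to BRP44 (0.984) and COX17 (0.979), and CD36 to CLSTN3 (0.976) and LIPE, the hormone-sensitive lipase (0.968). FABP5 was closest to 2900062L11RIK (0.967) and SLC5A6 (0.958), LPL to EPHX2 (0.968) and PPARG itself (0.948), and ANGPTL4 to both probes of TRIM29 (0.953). VLDLR was closest to ASNSD1 (0.911) and PVRL2 (0.894), and SLC27A1 to LUM (0.929) and AKTIP (0.929). Among the members, r was 0.965 for CD36 and FABP4, 0.957 for FABP4 and ACSL1 and 0.936 for LPL and ACSL1, and it was −0.55 for VLDLR and FABP5. Over the control days alone these values were, in the same order, 0.954, 0.935, 0.971 and −0.09. Over the KD days alone they were 0.314, 0.534, 0.916 and −0.35. FABP4 and CD36 themselves exceeded background on only 12 and 9 of 48 arrays and on no KD array.

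Of 56 further genes of fatty acid uptake, binding and activation, 49 were on the array with 66 probes, and over all days 14 probes fell and 3 rose in the KD, the median difference being −0.07. These are 21.2% and 4.55% of the 66, beside 6.74% and 6.37% of all probes. The 14 lowered probes belong to 10 genes, so some genes count more than once, and only 34 of the 66 probes were above background on any array. The 5 other fatty acid binding proteins were above background on no array. The other fatty acid transport proteins SLC27A2 to SLC27A6 differed by between −0.07 and −0.01 (limma adjusted p = 1), and of these SLC27A3 was above background on all 48 arrays. Of the other acyl-CoA synthetases ACSS2, which activates acetate, fell by 0.82 (adjusted p = 1.58e-16), while ACSL4 differed by 0.21 (adjusted p = 0.680). The acyl-CoA binding proteins DBI and ACBD4 fell by 0.62 (adjusted p = 8.98e-20) and 0.75 (adjusted p = 1.49e-19).

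The next list held genes of LPL maturation, cofactors and inhibitors of LPL, and their relatives. Of its apolipoprotein genes, APOC1 and APOE fell by 1.85 (limma adjusted p = 4.10e-24) and 0.99 (adjusted p = 5.30e-12). APOC3, an inhibitor of lipolysis that was above background on 7 control arrays and no KD array, was also called lower, with measured means of 5.82 and 4.94. APOC2 differed by −0.30 and was not called (adjusted p = 0.243), being above background on 13 control and 3 KD arrays. ANGPTL2 and ANGPTL6, relatives of ANGPTL4, rose by 0.29 (adjusted p = 2.73e-05) and 0.19 (adjusted p = 1.38e-04), and neither was called without replicate 1 (0.30 and 0.18) or without replicate 2 (0.20 in each). GPIHBP1, which anchors LPL to capillary endothelium, exceeded background on 1 of 48 arrays. Of the receptors, SORT1 fell by 2.05 (adjusted p = 1.89e-30), SCARB1, the HDL receptor, by 0.77 (adjusted p = 7.89e-18), SCARB2 by 0.38 and the receptor chaperone LRPAP1 by 0.25 (not called without replicate 1, −0.21, adjusted p = 0.108). LRP1, an endocytic receptor that binds lipoprotein remnants, rose by 0.40 (adjusted p = 4.59e-10).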

How the data were processed

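Gene expression was measured on 48 arrays (16 groups of siRNA and day, 3 replicates each), and samples were grouped by their titles. The authors deposited mean bead intensity values exported from BeadStudio 3.3.7 without normalization. The deposited file also holds the SD between beads and the number of beads, listed here as signal columns, and a detection value, a fraction whose distance from 1 is the detection p. A further 192 columns of minimum, maximum, array number and array SD were not used. The member genes and all lists were chosen with earlier results of these data known.

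In R 4.3.3, limma 3.58.1 removed background (normexp with detection p, offset 16). Scaling used rank-invariant probes (50th to 90th percentile of mean signal, rank moved by less than 0.05). Scale factors lay between 0.730 and 1.58. The model for log2 values had 1 mean for each of the 16 groups plus a replicate block (lmFit, eBayes). The study's methods remove a batch effect without naming the batch, and taking the replicate numbers as the block was a choice made here. P-values were adjusted by Bonferroni over 24613 probes, with 0.05 as the threshold. "Late minus early" is the siRNA difference of days 4 to 6 minus that of days 0 to 2.

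Where no array of a group exceeded background, a fold is a bound: the bright group's mean over the dim group's mean of, per array, the higher of the lowest signal above background and the probe's own. The named genes were the 8 members, PPARG, the 2 most similar probes of each member and the called genes of the pathway list, each gene through its brightest probe. On simulated data with 200 of 24613 probes changed, the fits recovered 200 over all days, 169 on day 6 and 186 for late minus early, with 0, 1 and 0 false calls. The changes were of 1 log2 unit, in probes above background on at least 3 arrays. The simulated replicate shift was shared by both siRNAs and the noise was normal, as the model assumes, so these rates hold for such data only. Alternatives were quantile normalization, no background correction, offset 50, a filter on dim probes (above background on at least 3 arrays), no block, Benjamini-Hochberg adjustment and leaving out each replicate. Promoter windows came from RefSeq, and figures were drawn with matplotlib 3.10.9 in Python 3.11.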

Additional observations from a re-analysis of the deposited data

Results flagged for a closer look

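The siRNA difference of 3 probes changed between days 0 to 2 and days 4 to 6 by limma's test of that change. It was 0.53 for LPL (probe 2970706, adjusted p = 0.00358), 0.75 for the dimmer ANGPTL4 probe 2480195 (adjusted p = 0.0213) and −0.79 for VLDLR (adjusted p = 1.93e-09), with 0.813% of all probes called higher and 2.82% called lower. The brighter ANGPTL4 probe 6760593 gave 0.33 (adjusted p = 1). Without replicate 1, and without replicate 2, neither LPL nor ANGPTL4 was called, and without replicate 3 CD36 was called lower as well.

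The change from day −2 to day 6 differed between the siRNAs for VLDLR by −0.74 (adjusted p = 0.00711), for FABP5 by −2.52 (adjusted p = 8.36e-08) and for ACSL1 by −2.62 (adjusted p = 9.48e-10). The VLDLR call was lost when any 1 replicate was left out, the values lying between −0.90 and −0.64. Without the replicate block the VLDLR and FABP5 calls were both lost, with the differences unchanged.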

How the results depend on the processing

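The 57 calls of single members between siRNAs or from day −2 to day 6 kept their direction under all alternatives run, and all 57 were called under quantile normalization, without background correction, with an offset of 50, with the filter on dim probes and with Benjamini-Hochberg adjustment. Of these, 8 were lost without replicate 1, 9 without replicate 2 and 1 without replicate 3. For the 23 calls in time steps, recomputed as an addition after seeing the data, these losses were 10, 11 and 1, with 2 under quantile normalization and 1 each with an offset of 50 and without background correction, and no direction turned. Of the probes called, quantile normalization had 66.1% lower in place of 77.6% late minus early and 45.1% in place of 34.2% from day −2 to day 6 under control siRNA. It moved the median of all probes from −0.12 to −0.0015 on day 2 and from −0.10 to 0.014 on day 3. With Benjamini-Hochberg, 4 probes were higher late minus early, and 7 were called lower on day 4, 8 on day 5 and 8 on day 6. Among these lower probes were FABP4 and CD36 on all 3 days, SLC27A1 on day 5 and VLDLR on day 6. The same adjustment also called FABP4 lower on days 1, 2 and 3 (limma adjusted p = 0.0333, 0.00167 and 0.00273). It did so for CD36 on day 2 (0.00252), SLC27A1 on day 1 (8.92e-04) and the dimmer ANGPTL4 probe on day −2 (8.02e-04). Counts under Benjamini-Hochberg or with a replicate left out have no share of all probes beside them and are no result about the members. VLDLR was called higher (1 probe) on day −2 under quantile normalization, the filter and Benjamini-Hochberg, on day 3 under quantile normalization and Benjamini-Hochberg, and on day 4 under these 3 and without background correction. Leaving out 1 replicate gave 5 to 8 probes called lower over all days, 3 to 6 on day 0, 1 to 2 lower and 0 to 2 higher late minus early, and 4 to 8 rising under control siRNA.

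The replicate numbers were made a block by choice, since the study's methods remove a batch effect but do not say what the batch was. The deviations of same-numbered arrays correlated at over 0.1 in 23 of 24 pairs (0.02 in the other, highest 0.90), and 14 of 24 control arrays correlated best with their own number. On every day control replicate 1 correlated better with KD replicate 2 than with KD replicate 1, on day 0 at 0.84 against 0.02. These values set replicate 3 apart and do not show that numbers 1 and 2 are matched between the siRNAs. Without the replicate block 1769 probes were called over all days in place of 3227, 426 in place of 894 late minus early, 794 in place of 1537 along the control course and 466 in place of 1084 along the KD course. Of the calls above, 12 of 57 and 10 of 23 were lost, as were LRP1 and ANGPTL6 among 14 other named genes, and 1 probe was higher late minus early, 4 rose under control siRNA and 1 was lower between the courses. The FABP5 calls of days 0 to 6 were among those lost (adjusted p = 1), with the differences unchanged. So were the calls of its control rise to day 6 and of its difference between the courses. The cause was not tested. The BeadChip as a block was not run, since the headers used here name none. Signal over background limits FABP4 and CD36.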
